A study of Mus musculus with 9 samples.

Results

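Broad H3K4me3 domains are unusually wide stretches of chromatin that carry trimethylated lysine 4 of histone H3. Here they were H3K4me3 peaks of at least 4000 bp, on the autosomes, X or Y, that did not overlap a peak of H3K27me3, the mark deposited by Polycomb repressive complex 2 (PRC2). Of 16899 H3K4me3 peaks, 1106 reached that width, 83 of these overlapped H3K27me3, and 1023 broad domains remained. The other 13837 H3K4me3 peaks without H3K27me3 are called narrower peaks below. The domains were selected on H3K4me3 width and on the lack of H3K27me3, so their width and H3K4me3 enrichment are given as a description only.

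The chromatin came from the thymus of C57BL/6J mice bearing T cell lymphomas driven by MYCN, the gene for the transcription factor N-MYC, and none of the 9 samples is labelled as normal tissue. The labels name no promoter, Cre driver or age for the model, and do not say how many animals gave the chromatin. ChIPmentation, a chromatin immunoprecipitation in which a transposase adds the sequencing adapters to chromatin on the beads, was done with 7 antibodies: against H3K4me3, H3K27ac, H3K27me3, N-MYC, the acetyltransferase p300, and EZH2 and SUZ12, which are the catalytic and a core subunit of PRC2. Each antibody had 1 library with 1 peak list, and 2 input libraries had none, so nothing below has a replicate check or a p-value. Intervals are 95% Wilson intervals of shares, which reflect the number of peaks counted and nothing else, and peaks were taken as independent of each other. The title of the series places EZH2 among activators of transcription, which raises the question of what EZH2, N-MYC, p300 and H3K27ac peaks these domains hold.

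H3K4me3 is written at gene starts by the SET1 and MLL (KMT2) methyltransferases and is read by factors that help RNA polymerase II to start and elongate. At most active genes it covers a few nucleosomes next to the start. In many cell types the widest stretches lie over genes that define the cell's identity and over tumour suppressor genes, which is what the mark's breadth is known for. Lck, Cd5 and the CD3 genes, which serve the T-cell receptor, and the transcription factors Tcf7 and Bcl11b are such identity genes in thymocytes.

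Promoter sequences are shown because their CpG content set the T-cell surface genes apart from other listed genes in broad domains. The 300 bases from 250 before to 50 after the start are shown for 5 genes, 5′ to 3′ on the gene's strand, from RefSeq on GRCm38.p6. They are the promoters of Zbtb7b (chr3:89387622-89387921, minus strand) and Tcf7 (chr11:52282546-52282845, minus strand), which encode T-cell lineage factors, and of Cd3d (chr9:44981536-44981835, plus strand), a chain of the T-cell receptor complex. The other 2 belong to Cdk6 (chr5:3343643-3343942, plus strand), a kinase that drives entry into S phase, and Arid1a (chr4:133753936-133754235, minus strand), a subunit of the SWI/SNF chromatin remodeller. Capitals mark the E-box CACGTG, to which MYC and MAX bind, the GC box GGGCGG, the ETS-type motif CCGGAAGT and the TATA box TATAAA, on either strand. The 5 were taken from the 8 promoters of the widest domains in 4 gene lists, with their sequence known, to span the range from few to many CpG sites.
Zbtb7b: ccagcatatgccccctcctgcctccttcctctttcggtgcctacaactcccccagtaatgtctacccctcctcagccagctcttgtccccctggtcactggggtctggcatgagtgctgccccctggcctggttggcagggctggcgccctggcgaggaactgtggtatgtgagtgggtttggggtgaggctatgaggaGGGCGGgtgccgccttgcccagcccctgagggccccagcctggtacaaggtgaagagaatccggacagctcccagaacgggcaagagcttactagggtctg
Tcf7: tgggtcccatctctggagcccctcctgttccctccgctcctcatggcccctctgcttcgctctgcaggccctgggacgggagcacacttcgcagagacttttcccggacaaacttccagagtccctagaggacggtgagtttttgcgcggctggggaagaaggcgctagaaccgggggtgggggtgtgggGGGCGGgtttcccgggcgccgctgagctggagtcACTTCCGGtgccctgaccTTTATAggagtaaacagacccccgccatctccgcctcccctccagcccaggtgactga
Cd3d: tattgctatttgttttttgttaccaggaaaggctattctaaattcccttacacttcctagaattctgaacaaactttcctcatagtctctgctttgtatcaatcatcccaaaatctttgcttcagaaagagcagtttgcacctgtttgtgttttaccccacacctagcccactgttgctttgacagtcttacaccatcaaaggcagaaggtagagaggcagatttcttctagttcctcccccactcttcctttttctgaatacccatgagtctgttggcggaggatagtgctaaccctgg
Cdk6: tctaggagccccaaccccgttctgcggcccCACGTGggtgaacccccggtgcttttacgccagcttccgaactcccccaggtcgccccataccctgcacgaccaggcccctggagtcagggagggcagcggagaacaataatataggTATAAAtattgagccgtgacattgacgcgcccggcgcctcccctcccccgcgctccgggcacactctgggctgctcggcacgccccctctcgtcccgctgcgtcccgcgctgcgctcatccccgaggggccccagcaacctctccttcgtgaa
Arid1a: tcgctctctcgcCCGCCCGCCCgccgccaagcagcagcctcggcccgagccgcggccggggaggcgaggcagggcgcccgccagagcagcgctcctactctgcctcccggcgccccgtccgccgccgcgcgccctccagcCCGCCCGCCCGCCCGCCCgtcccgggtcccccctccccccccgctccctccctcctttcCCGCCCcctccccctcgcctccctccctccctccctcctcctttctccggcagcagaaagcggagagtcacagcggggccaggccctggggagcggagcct

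These promoters held 7 CpG sites at Zbtb7b, 17 at Tcf7, 1 at Cd3d, 27 at Cdk6 and 36 at Arid1a. Zbtb7b, Tcf7 and Arid1a had other annotated starts upstream in the same domain, whose promoter sequences are not shown. Arid1a had 7 GC boxes, overlaps included, Tcf7 and Zbtb7b had 1 each, and Cd3d had none of the 7 motifs searched. Cdk6 alone among these 5 held a CACGTG E-box, first base at -220 bp from its start. A motif match is a description of letters and does not show a bound site.

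Across all broad domains the promoters were rich in CpG. The 1050 protein-coding genes with a start in a broad domain and an entry in the promoter table had a median of 27 CpG sites per 300 bases and 65.0% GC. Genes in narrower peaks (6711) had 22 and 61.3%, and all 17492 genes with an entry had 13 and 56.3%. Among the listed genes with a broad domain, the median was 28.5 CpG sites for T-cell lineage factors (6 promoters), 25.5 for cell cycle genes (14) and 35.5 for chromatin regulators (22), but 4 for T-cell receptor and surface genes (7, from 0 at Lcp2 to 20 at Cxcr4). Median domain width was 4846 bp for these T-cell receptor and surface genes, 4883 bp for cell cycle genes and 4662 bp for chromatin regulators. All domains were selected on width, and these medians include genes without a promoter entry. They therefore cannot show whether CpG content and width are related, which was not tested.

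GC boxes were more frequent in both sets of H3K4me3-marked promoters than in promoters at large, and TATA boxes less so. GGGCGG was present in 71.6% of promoters in broad domains, in 68.2% of those in narrower peaks and in 46.3% of all promoters, and TATAAA in 5.52, 5.56 and 13.3%. CACGTG occurred in 10.7% (8.94 to 12.7%) of broad, 11% of narrower and 7.90% of all promoters, and CCGGAAGT in 9.33, 11.3 and 5.29%. Within the broad domains, CACGTG was found in 11.1% (9.25 to 13.4%) of 897 promoters whose domain held an N-MYC peak and in 7.84% (4.54 to 13.2%) of 153 whose domain did not, so the intervals overlapped. The motif GCATGCGC, bound by NRF1, stood in 6.13% and 1.31%, and GGGCGG in 74.3% (71.3 to 77.0%) and 56.2% (48.3 to 63.8%). The RUNX-type motif TGTGGTTT was rare throughout, at 0.857% of broad, 1.10% of narrower and 1.69% of all promoters, and CCAAT did not separate the sets, at 39.7, 39.6 and 39.0%.

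In width, the broad domains had a median of 4637 bp, 134 were at least 6000 bp wide, 31 at least 8000 bp and 7 at least 10000 bp. They were 6.05% of the H3K4me3 peaks and covered 5.11 Mb, 16.8% of all bases under H3K4me3. Their H3K4me3 fold enrichment, the authors' ratio of signal to local background at the summit, had a median of 33.3 and ran from 7.08 to 56.1, against a median of 15.9 in narrower peaks. Width followed enrichment among narrower peaks (Spearman's rho 0.875 over 13837 peaks of 1 library) but not among broad domains (0.04 over 1023). The 4000 bp limit restricts the range of width among broad domains, so these values are not directly comparable. The members just inside the limit were at Nudt3 (4001 bp), Pidd1 (4002 bp) and Amd1 (4004 bp), and those just outside at Ptbp3 (3998 bp) and Lnpep (3997 bp).

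The widest domains, with or without a gene start, were led by T-cell genes. Zbtb7b, which encodes ThPOK, the factor that directs thymocytes to the CD4 lineage, had the widest at 13687 bp (chr3:89383050-89396736). Next came 13351 bp in the T-cell receptor gamma locus (chr13:19336195-19349545) and 12310 bp over Tcf7 (chr11:52272925-52285234), whose product TCF-1 starts and maintains T-cell identity. Compact gene groups followed: 11598 bp over Slc25a11, Rnf167, Eno3 and Pfn1, and 10799 bp over Med22, Rpl7a, Surf2 and Surf1. Rhof and Setd1b shared 10473 bp, and Setd1b itself encodes an H3K4 methyltransferase. Pik3cd, a lymphocyte lipid kinase, had 9905 bp, Ikzf1, the lymphoid factor Ikaros, 9875 bp, and Ldb1, an adaptor of LIM-domain factors, 9708 bp.

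Nearly every broad domain also carried peaks of the other active lists. EZH2 peaks were present in 968 of 1023 domains (94.6%, 93.1 to 95.9%), p300 peaks in 1009 (98.6%, 97.7 to 99.2%), H3K27ac peaks in all 1023 (99.6 to 100%) and N-MYC peaks in 863 (84.4%, 82.0 to 86.5%). Among all 14860 H3K4me3 peaks without H3K27me3 the corresponding shares were 44.5, 59.1, 85.2 and 46.4%, and among the narrower peaks alone 40.8, 56.2, 84.2 and 43.6%. SUZ12, EZH2's partner in PRC2, was found in 4 broad domains (0.391%, 0.152 to 1.0%), against 0.229% of all these H3K4me3 peaks. EZH2 thus overlapped almost all of the domains while SUZ12 overlapped almost none, although leaving out peaks with H3K27me3, the product of PRC2, bears on the SUZ12 count.

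All of EZH2, N-MYC, p300 and H3K27ac were present together in 837 domains (81.8%, 79.3 to 84.1%), against 34.0% of all H3K4me3 peaks without H3K27me3. The most frequent other make-up was EZH2, p300 and H3K27ac without N-MYC, in 126 domains (12.3%), against 6.99% of narrower peaks. N-MYC, p300 and H3K27ac without EZH2 occurred in 23 (2.25%, against 9.79% of narrower peaks). The pair of p300 and H3K27ac alone occurred in 23 (2.25%, against 8.54%), and H3K27ac alone in 8 (0.782%, against 23.1%). The remaining 6 domains lacked p300 but held EZH2 or N-MYC.

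A wide peak offers more bases to overlap, so the same shares were read in a fixed window of 500 bp on each side of the H3K4me3 summit. In that window EZH2 was present at 93.6% of broad domains and 40.7% of narrower peaks, p300 at 97.0% and 57.4%, H3K27ac at 100% and 87.4%, and N-MYC at 71.3% (68.4 to 73.9%) and 43.4%. The differences between broad and narrower peaks were thus present at equal length. N-MYC was the list whose share dropped most between the whole broad domain and this window. In broad domains with a single gene of known strand, the H3K4me3 summit stood a median of 458.5 bp downstream of the start. The strongest N-MYC summit stood at a median of -80.5 bp. A lower share in the window therefore does not show that N-MYC was missing from the middle of a domain.

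Across classes of width the shares rose steeply and then levelled off before the limit of 4000 bp. EZH2 was present in 1.52% of H3K4me3 peaks under 1000 bp, in 30.5% of those of 1000 to 1999 bp, in 78.5% from 2000 to 2999 bp and in 92.3% (91.1 to 93.4%) from 3000 to 3999 bp. N-MYC went from 7.96% to 48.5%, 71% and 82.4% (80.6 to 84.0%) over the same classes, and p300 from 14.6% to 65.3%, 88.6% and 95.7%. Intervals for EZH2 and N-MYC in the class of 3000 to 3999 bp overlapped those of the broad domains. In the window around the summit, N-MYC was most frequent at 3000 to 3999 bp (79.2%) and less so at 4000 to 4999 bp (74.6%), 5000 to 5999 bp (66.2%) and 6000 bp or more (61.9%). Over those classes N-MYC peaks covered 19.4, 18.1, 15.9 and 14.9% of the bases, EZH2 peaks 26, 27.4, 27.3 and 26%, and p300 peaks 43.4, 48.3, 48.9 and 57.5%. Counted per 10 kb, N-MYC had 2.75, 2.51, 2.26 and 2.09 peaks, EZH2 3.34, 3.22, 2.85 and 2.91, and p300 4.24, 4.03, 3.86 and 4.18, so a lower number per length was not particular to N-MYC.

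**Figure D1:**
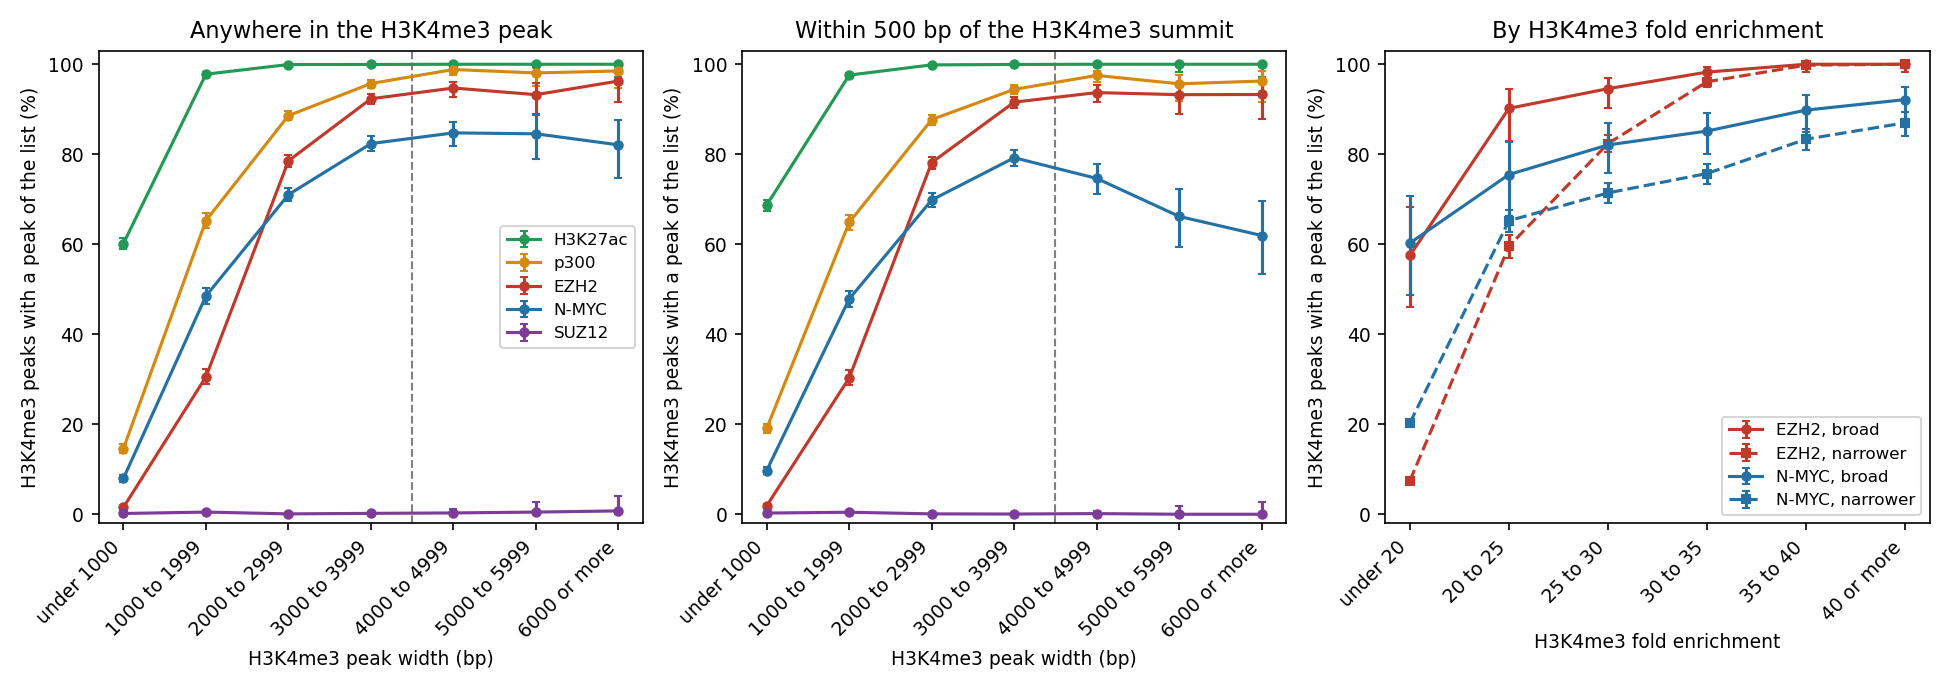
Share of H3K4me3 peaks without H3K27me3 that held a peak of each list (vertical axes, percent, bars are 95% Wilson intervals), by H3K4me3 width anywhere in the peak (left), by width in the window of 500 bp each side of the summit (middle) and by H3K4me3 fold enrichment in broad domains and narrower peaks (right). The dashed line marks 4000 bp: EZH2 reaches 92.3% before it, and N-MYC near the summit falls from 79.2% to 61.9% beyond 3000 bp.

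Enrichment of H3K4me3, which also differs between broad and narrower peaks, was held in classes. At a fold enrichment of 20 to 25, EZH2 was present in 90.2% (82.9 to 94.6%) of 102 broad domains and in 59.6% of 1412 narrower peaks, N-MYC in 75.5% and 65.2%, and p300 in 97.1% and 83.0%. At 30 to 35 the shares were 98.3% (95.6 to 99.3%) and 96.1% (95 to 97.0%) for EZH2, 85.2% and 75.7% for N-MYC, and 100% and 94.2% for p300. At 40 or more, EZH2 was present in every one of 229 broad domains and 576 narrower peaks, and N-MYC in 92.1% and 87.0%. Strong H3K4me3 peaks thus held EZH2 whatever their width. The gaps were wider below a fold enrichment of 20, where EZH2 was present in 57.5% of 73 broad domains and 7.45% of 7880 narrower peaks. N-MYC was present there in 60.3% and 20.3%, and p300 in 86.3% and 30.2%. This class has no lower bound and does not hold enrichment equal. The weakest broad domain was at 7.08, whereas the first quartile of all narrower peaks was 4.86. The wider gaps therefore cannot be assigned to width. In the window around the summit at 40 or more, N-MYC was present at 80.4% of broad domains and 84.4% of narrower peaks, with overlapping intervals.

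Many domains held several peaks of a list. Of the broad domains, 453 (44.3%) had at least 2 EZH2 peaks, 279 (27.3%) at least 2 N-MYC peaks and 618 (60.4%) at least 2 p300 peaks, with at most 6, 5 and 8 in 1 domain. EZH2 peaks covered 27.1% of the bases in broad domains, N-MYC 17.0%, p300 50.2% and H3K27ac 83.6%, against 17.8, 16.8, 35.9 and 77.0% in narrower peaks. Counted per 10 kb, EZH2 had 3.08 peaks in broad domains and 2.85 in narrower ones, and N-MYC 2.37 and 2.90. In all, the domains contained 1573 EZH2 peaks (8.40% of that list), 1213 N-MYC peaks (12.4%) and 2057 p300 peaks (13.1%).

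Among domains with a peak, the strongest peak had a median fold enrichment of 6.62 for EZH2, 6.64 for N-MYC, 6.39 for p300 and 16.9 for H3K27ac. EZH2 enrichment followed that of H3K4me3 (Spearman's rho 0.611 over 968 domains), more than N-MYC (0.188 over 863), p300 (0.219 over 1009) or H3K27ac (0.262 over 1023) did. N-MYC enrichment followed p300 (0.465 over 860 domains) more than EZH2 (0.231 over 839). Correlations with width ran from 0.009 to 0.067 within the broad domains, whose range of width is restricted by the 4000 bp limit. Among narrower peaks that held a peak of the list, they were 0.354 for EZH2, 0.198 for N-MYC, 0.32 for p300 and 0.414 for H3K27ac. These correlations are across regions of single libraries, which share their local background and openness, and have no test.

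The strongest EZH2 peaks in broad domains were at Eif5a (fold enrichment 13.6), a translation factor, Rsbn1l (13.5) and Arid1a (13.4). The strongest N-MYC peaks were at Pcbp1 (24.4), an RNA-binding protein gene, at the shared promoter of Dnajb4 and Fubp1 (19.3), and at Rack1 (18.8), which encodes a ribosomal scaffold. For p300 they were at Dyrk1a (18.1), a kinase gene, Ccne2 (16.4), which encodes cyclin E2, and Arid4a (12.8), which encodes an RB-binding protein. Arid1a was high in both EZH2 and N-MYC (14.3), whereas Rsbn1l had strong EZH2 beside an N-MYC peak of 4.85.

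Gene starts lay in 957 of the 1023 domains. 1 protein-coding start was found in 658, a pair in 281 (27.5%) and 3 or more in 18, whereas narrower peaks held a pair in 6.30%. Broad domains are wider by selection and 45.3% of narrower peaks held no start, so these shares are not compared at equal length. Of 215 pairs with both strands known, 136 (63.3%) were transcribed away from each other, with starts a median of 122.5 bp apart in these divergent pairs, against 60.8% and 92.0 bp in narrower peaks. The 18 domains with 3 or more starts included clusters of replication-dependent histone genes, and 10 domains in all held such a histone gene. All 10 had an N-MYC peak and 9 had EZH2, near the 84.4% and 94.6% of all broad domains. The domain over H2ac8, H2bc8, H2bc7, H2ac7 and H3c4 had 5 N-MYC peaks, the strongest at 14.3, as many as the domain of Ankrd13b and Git1. Histone genes were looked up after their values were seen, and reads from near-identical histone copies may not be told apart.

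Position within the domain was read in 552 domains with a single gene of known strand. They extended a median of 3203.5 bp downstream of the start, into the gene, and 1457.5 bp upstream, against 1598.5 and 654 bp for 5558 narrower peaks. In 91.8% of broad domains and 93.4% of narrower peaks the mark reached farther downstream than upstream, so the added width lay on both sides. The H3K4me3 summit stood a median of 458.5 bp downstream of the start and the strongest EZH2 summit 414 bp downstream (88.1% of 527 were downstream). The medians of the strongest N-MYC and p300 summits lay near the start, at -80.5 and -39 bp, and that of H3K27ac at 352.5 bp. Their quartiles were wide: -260.75 to 136.75 bp for N-MYC, -259 to 546 bp for p300 and -311.5 to 610.25 bp for H3K27ac. In narrower peaks EZH2 was 272 bp and H3K4me3 286 bp downstream, with N-MYC at 17 bp and p300 at 8 bp.

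Coverage around these starts had the same order. At 250 bp downstream, EZH2 peaks covered 84.2% of the 552 starts and N-MYC peaks 44.6%, while at the start itself N-MYC covered 65.0% and EZH2 62.0%. At 1000 bp upstream EZH2 covered 7.61%, N-MYC 12% and p300 43.7%, and at 1000 bp downstream 54.5, 12.7 and 61.2%. By 3000 bp downstream, where 66.7% of the domains still carried H3K4me3, EZH2 was down to 0.906%, N-MYC to 0.725% and p300 to 11.8%, whereas H3K27ac covered 47.6%. At 2000 bp downstream EZH2 covered 7.97% and N-MYC 2.36% of these starts, so the far part of the domains was marked by H3K4me3 and H3K27ac with few EZH2 or N-MYC peaks.

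**Figure D2:**
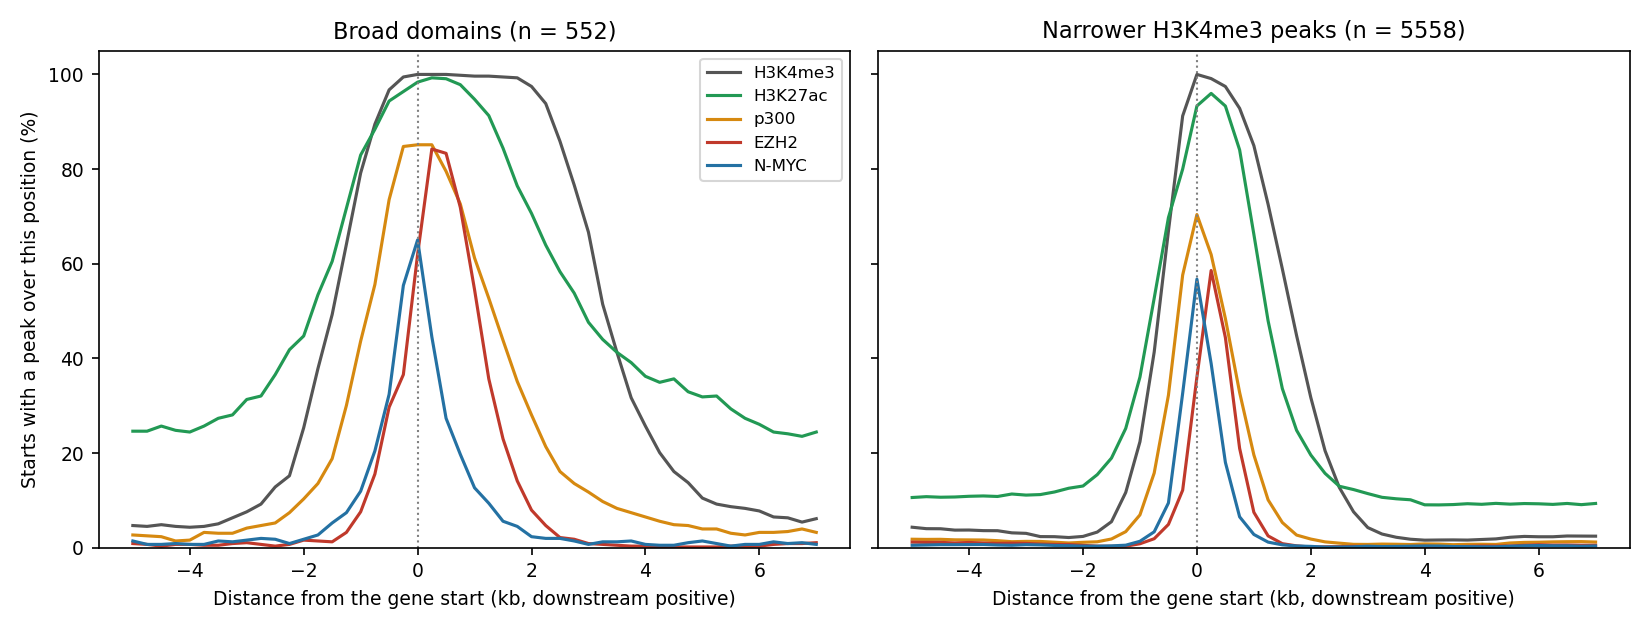
Share of gene starts with a peak of each list over a given position (vertical axis, percent) against distance from the start (horizontal axis, kb, positive into the gene), for 552 broad domains and 5558 narrower peaks with a single gene. EZH2 is highest downstream of the start, at 84.2% 250 bp into the gene, and N-MYC at the start, at 65.0%.

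Gene lists for T cells, the cell cycle, chromatin and comparison groups were then read against the domains. Of 21887 protein-coding genes, 1270 (5.8%) had a start in a broad domain, and of the 9460 genes with any H3K4me3 peak without H3K27me3 at a start, 13.4%. T-cell lineage factors reached 8 of 30 (26.7%, 14.2 to 44.5%), T-cell receptor and surface genes 10 of 34 (29.4%, 16.8 to 46.2%), cell cycle genes 18 of 52 (34.6%, 23.2 to 48.2%) and chromatin regulators 31 of 100 (31.0%, 22.8 to 40.6%). Comparison lists gave 6 of 16 housekeeping genes (37.5%), 5 of 14 MYC network genes (35.7%), 9 of 30 ribosome biogenesis and MYC target genes (30%), 5 of 30 T-cell leukaemia genes (16.7%), 11 of 73 cytosolic ribosomal protein genes (15.1%) and 2 of 16 BCL2 family genes (12.5%). All lists were above 5.8%, but their intervals overlapped each other, and the highest share was that of the housekeeping genes (18.5 to 61.4%). In genes with an H3K4me3 peak without H3K27me3 the share was 50% for T-cell lineage factors, 38.5% for T-cell receptor and surface genes, 40.9% for cell cycle genes, 33.7% for chromatin regulators, 55.6% for MYC network genes, 40% for housekeeping genes, 31.0% for ribosome biogenesis genes, 27.8% for T-cell leukaemia genes, 18.2% for BCL2 family genes and 15.3% for ribosomal protein genes.

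**Figure D3:**
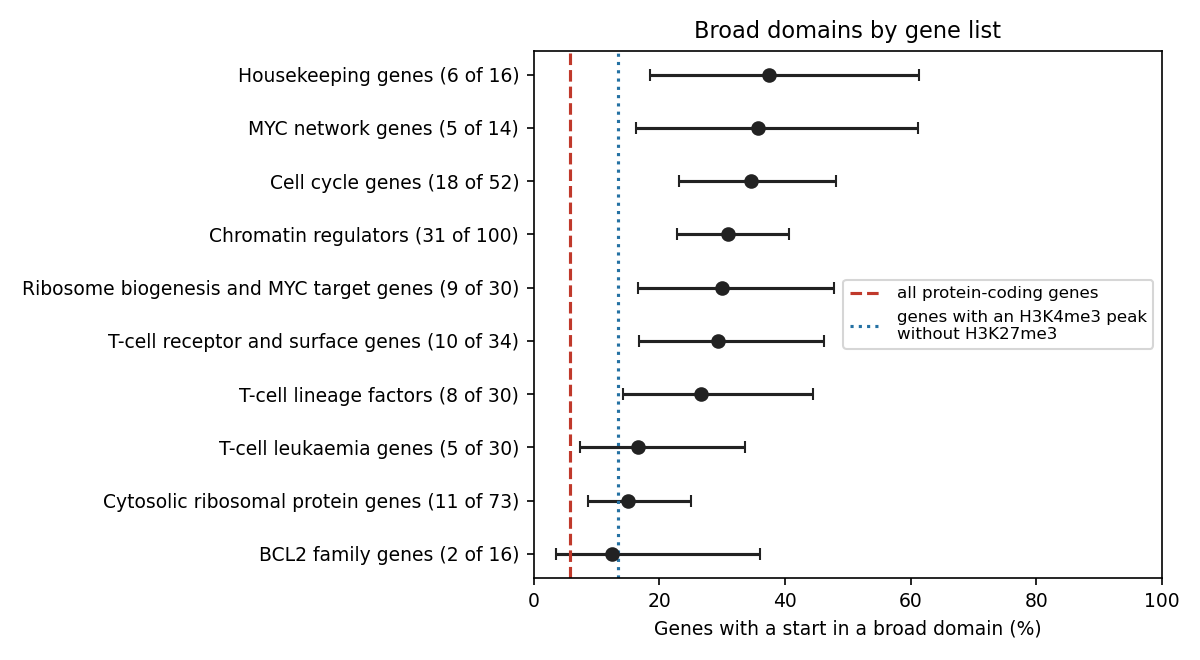
Percent of the genes of each list with an annotated start in a broad domain (horizontal axis, bars are 95% Wilson intervals), with the share over all protein-coding genes (dashed, 5.8%) and over genes with an H3K4me3 peak without H3K27me3 (dotted, 13.4%). Housekeeping genes stand at 37.5%, cell cycle genes at 34.6% and T-cell lineage factors at 26.7%, with overlapping intervals.

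The tissue label was read from marker genes of cell types. Of 11 T-cell markers, 5 had a broad domain (Cd3d, Cd3g, Thy1, Cd2 and Tcf7), and Bcl11b had a peak of 8306 bp that overlapped H3K27me3. Another 4 had narrower peaks, at Cd3e (3798 bp), Cd5 (3647 bp), Lck (3238 bp) and Cd4 (2694 bp). Cd8a had no H3K4me3 peak at a start. Over all protein-coding genes 5.8% had a broad domain, and 13.4% of those with an H3K4me3 peak without H3K27me3 at a start. None of 8 B-cell, 6 thymic epithelial or 7 stromal and endothelial markers had an H3K4me3 peak at a start. Of 8 myeloid markers Cebpa alone had a narrow one, with H3K27me3. Lack of a peak was common, as 11233 of all 21887 protein-coding genes had no H3K4me3 peak at a start. All 5 erythroid markers had a narrower H3K4me3 peak, at fold enrichments from 12.1 (Gata1) to 19.8 (Klf1), 3 of them without H3K27me3, but none had a broad domain. In bulk chromatin, fewer cells with a mark and less mark per cell cannot be told apart.

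Counts by list take the widest broad domain of each gene and are to be read against the shares over all 1023 domains, 94.6% with EZH2, 98.6% with p300, 100% with H3K27ac and 84.4% with N-MYC. Of the 8 T-cell lineage factors, all had EZH2, p300 and H3K27ac, and 6 had N-MYC, which is close to those shares. Tcf7 had 3 EZH2 peaks (strongest fold enrichment 7.89), 3 N-MYC peaks (7.16) and 4 p300 peaks (5.95). Ikzf1 had 2 EZH2 peaks (5.83) and 2 N-MYC peaks (8.26). Elf1, an ETS factor with a domain of 6894 bp, had EZH2 at 6.01 and N-MYC at 3.94, and Myb, needed for thymocyte growth (5010 bp), had EZH2 at 7.81 and 3 N-MYC peaks at up to 6.70. Tox, required for CD4 lineage development (4710 bp), had EZH2 at 6.6 and N-MYC at 4.33, and Zeb1, a repressor in lymphocytes (4303 bp), had 7.81 and 9.82.

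Zbtb7b and Runx1 were the lineage factors without an N-MYC peak. The domain of Zbtb7b, although the widest of all, had low enrichments: 4.37 for EZH2 over 4 peaks, 4.28 for p300 and 9.89 for H3K27ac, against medians of 6.62, 6.39 and 16.9 over the broad domains. Runx1, a factor of thymocyte development, had a domain of 4211 bp with H3K4me3 at 11.3 and EZH2 at 6.08. A further 6 lineage factors had H3K4me3 peaks of at least 4000 bp that were left out for H3K27me3: Gfi1 (10749 bp), Gata3 (9126 bp), Bcl11b (8306 bp), Lef1 (6092 bp), Foxp1 (4551 bp) and Nfatc1 (4510 bp). With these, 46.7% of the list would be in wide domains, against 6.20% of all genes. All 6 held EZH2 and SUZ12 peaks, and all but Nfatc1 held N-MYC.

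The 10 T-cell receptor and surface genes lay in 9 domains, of which 8 held EZH2 and 4 held N-MYC, against 94.6% and 84.4% of all broad domains. This difference was not tested. Where peaks were present, they had median fold enrichments of 5.22 for EZH2 and 4.75 for N-MYC. N-MYC was listed at Zap70 (7.15), the kinase of the receptor, at Cd6 (5.51), at Cxcr4 (4.0), the CXCL12 receptor, and at Thy1 (3.74). It was missing over Cd3d and Cd3g, which share a domain of 9066 bp with EZH2 at 6.62 and p300 at 8.28, and over Cd27 (7052 bp), a costimulatory receptor, Lcp2 (5768 bp), the adaptor SLP-76, Ptprc (4369 bp), the phosphatase CD45, and Cd2 (4123 bp), an adhesion receptor. An N-MYC peak of fold enrichment 4.05 began just outside the domain of Cd3d and Cd3g. Cd2 was the domain of this list without EZH2. Median H3K4me3 enrichment was 29.3 here and 33.3 over all broad domains.

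The T-cell receptor loci themselves, looked up after their values were seen, held 6 broad domains, all over joining or constant segments and not over an annotated protein-coding start. Apart from the 13351 bp domain, the gamma locus had domains of 6628 and 5819 bp, the beta locus 7129 bp at Trbc1 and 4284 bp at Trbc2, and the alpha locus 8534 bp over its joining segments. All 6 carried p300 and H3K27ac, the latter at 41.8 in the Trbc1 domain, the highest H3K27ac value of any broad domain. EZH2 was present in 4 of the 6, against 94.6% of all broad domains, and N-MYC in 1, at Trbc2 with a fold enrichment of 3.80, against 84.4%.

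**Figure D4:**
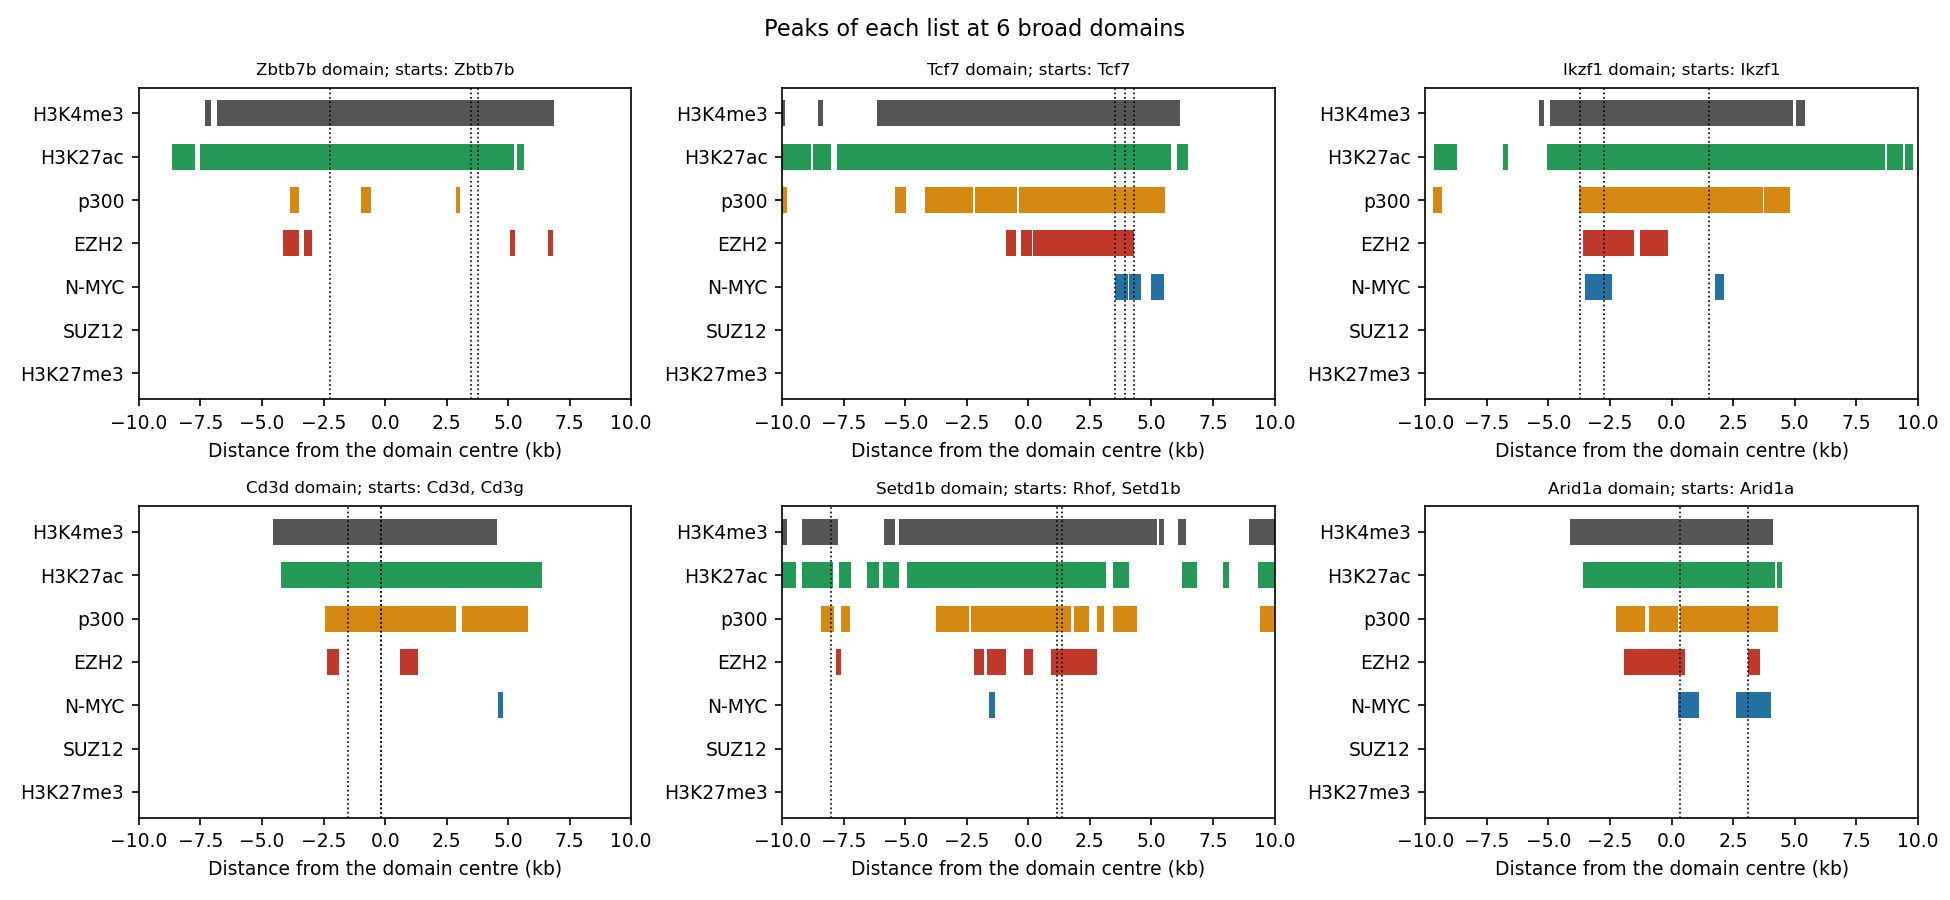
Peaks of 7 lists (rows, bars drawn to scale) around the centre of 6 broad domains (horizontal axis, distance in kb), with dotted lines at annotated protein-coding starts. The domains of Zbtb7b and of Cd3d and Cd3g hold no N-MYC peak, that of Tcf7 holds 3, and none holds SUZ12 or H3K27me3.

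Of the 18 cell cycle genes with a broad domain, all had EZH2 and 14 had N-MYC in the widest, close to the 94.6% and 84.4% of all broad domains. The widest were those of Cdk6 (7331 bp), E2f2 (7118 bp), a transcription factor of the S-phase programme, and Ccnd3 (6749 bp), the cyclin D3 gene on which thymocyte expansion depends. Cdkn2c (6077 bp) and Cdkn2d (6050 bp), which encode inhibitors of CDK4 and CDK6, came next, so drivers and brakes of the same step were both present. Plk1 (5462 bp), a mitotic kinase, Mki67 (5267 bp), the Ki-67 gene, Ccne2 (5009 bp), Ccne1 (4930 bp), the cyclin E1 gene, and Rb1 (4836 bp), the retinoblastoma gene, completed the 10 widest.

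N-MYC was strong at the cyclin E genes, at 15.8 for Ccne2 and 11.4 for Ccne1, beside EZH2 at 6.24 and 6.78. It was weaker at Cdk6 (7.91), Rb1 (6.53), Cdkn2c (5.23) and Ccnd3 (4.62). EZH2 was strongest at Cdkn2c (11.2), Rb1 (11.1) and Mki67 (10.2), and Mki67 had no N-MYC peak. E2f2, Plk1 and Cdc25b, a phosphatase that activates CDK1, also lacked N-MYC and had EZH2 at 8.48, 6.39 and 5.76. Ccnd3 had a second broad domain of 4291 bp at another start, without EZH2 or N-MYC.

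Of the 31 chromatin regulators with a broad domain, all had EZH2 and 28 had N-MYC, again close to the 94.6% and 84.4% of all broad domains. Of 7 genes of the H3K4 methyltransferase family on the list, 5 had a broad domain, beside 31.0% of the whole list and 5.8% of all protein-coding genes. The share was 13.4% of genes with an H3K4me3 peak without H3K27me3, and the difference was not tested. The 5 were Setd1b (10473 bp, EZH2 at 6.96, N-MYC at 4.18), Kmt2e (6755 bp, 12.6 and 7.23), Kmt2a (5322 bp, 7.37 and 7.36), Kmt2d (5255 bp, 10.6 and 7.78) and Kmt2c (4662 bp, 11.6 and 7.05). Kmt2e, an MLL family member with little methyltransferase activity, had the highest H3K4me3 enrichment of all broad domains, 56.1. Kmt2b (3323 bp) and Setd1a (3723 bp) had narrower peaks. Of 13 listed subunits of SWI/SNF remodellers, 4 had a broad domain, near the 31.0% of the whole list. Another 8 had narrower peaks and Smarca2 had a wide peak with H3K27me3. The 4 with a broad domain were Arid1a (8261 bp), Arid2 (6818 bp), Arid1b (4873 bp) and Pbrm1 (4166 bp), where N-MYC stood at 14.3, 15.8, 9.37 and 13.1. Pbrm1 shares its domain with Gnl3, a nucleolar gene.

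Brd2, which encodes a reader of acetylated histones, had 8764 bp with EZH2 at 9.24 and N-MYC at 14. Jarid2 (6326 bp), whose product is a partner of PRC2, had N-MYC at 11 and EZH2 at 6.62, Hdac7 (5523 bp), a deacetylase gene of thymocytes, had 4.27 and 5.28, and Stag2 (5443 bp), a cohesin subunit, had 5.14 and 7.02. Kdm2b, Kdm6a and Chd4 lacked N-MYC: Kdm2b, whose product recruits a Polycomb complex to CpG islands, had 4 EZH2 peaks at up to 5.15, Kdm6a, an H3K27 demethylase, had EZH2 at 6.82, and Chd4, the remodeller of the NuRD complex, at 10.1 with p300 at 11.2. Ep300, the gene of p300 itself, was in a domain of 4234 bp with p300 at 6.76.

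**Figure D5:**
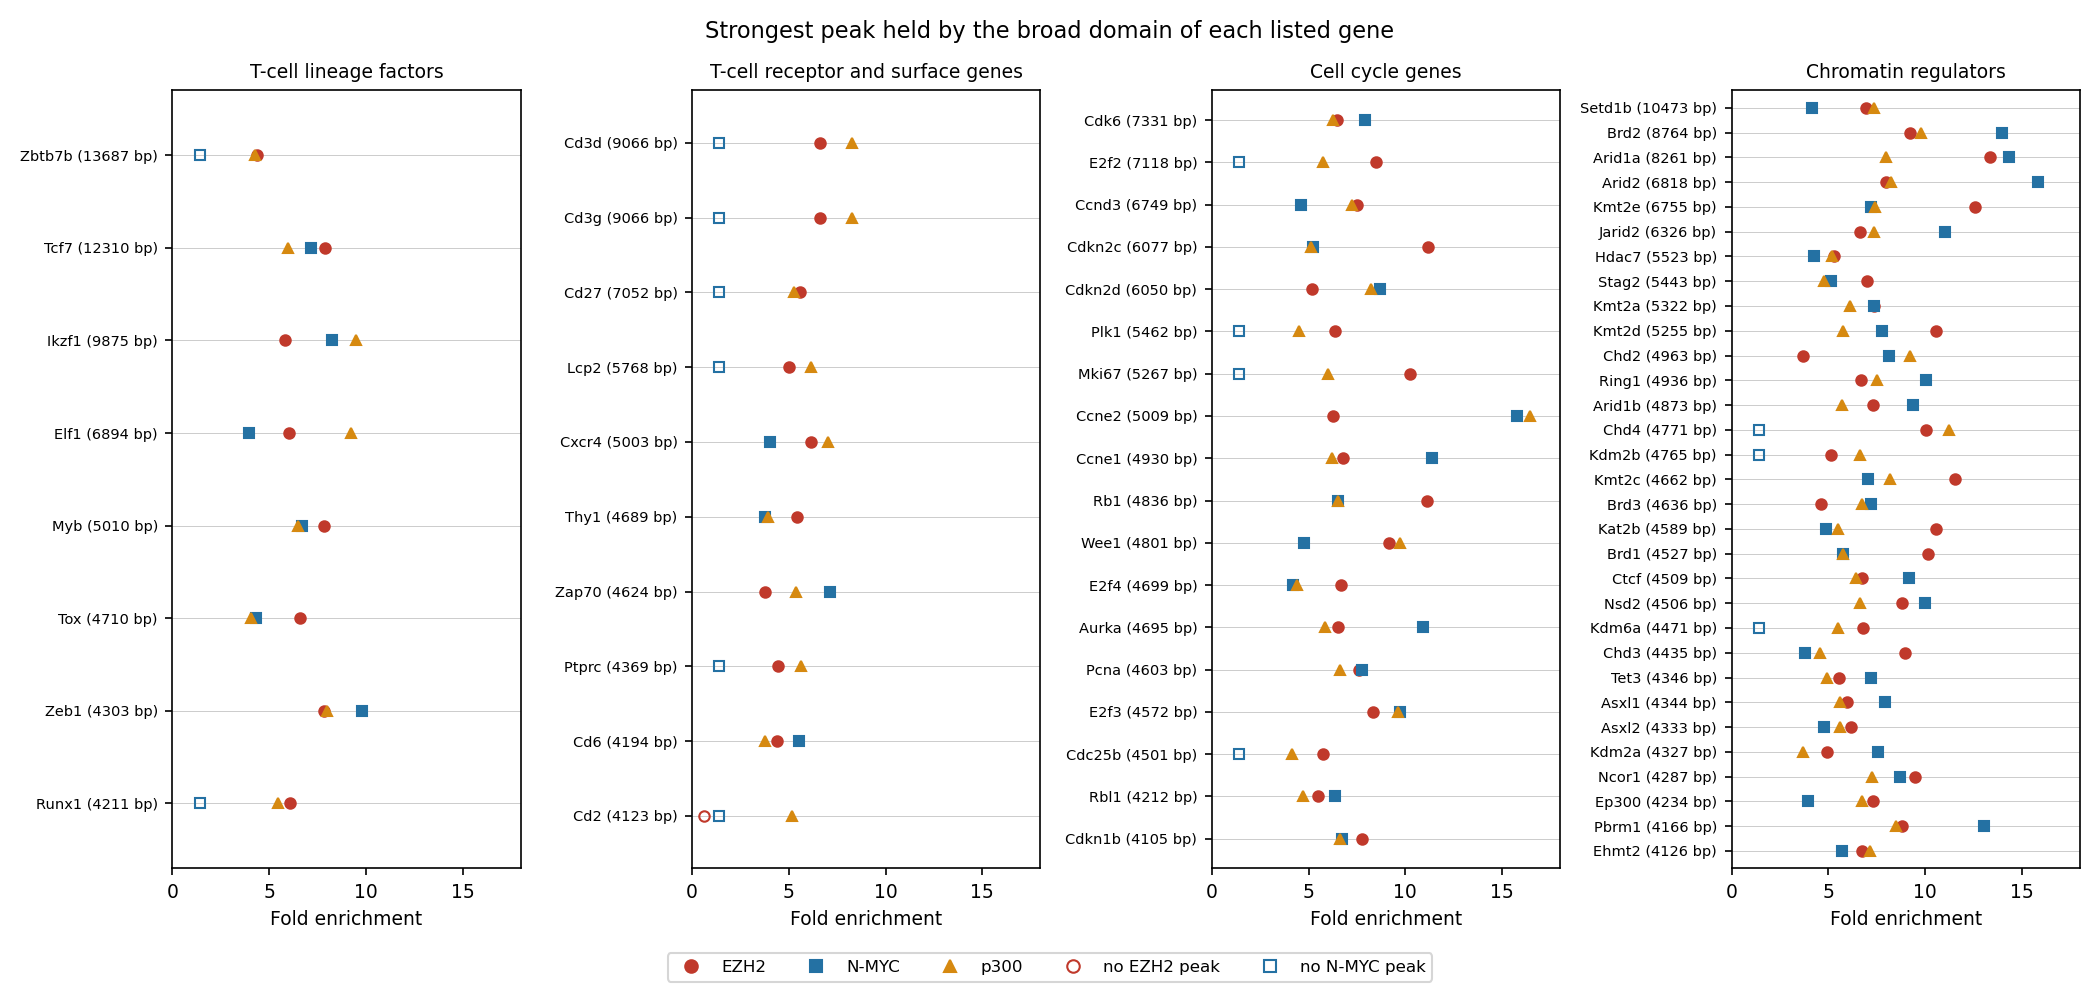
Fold enrichment of the strongest EZH2, N-MYC and p300 peak (horizontal axes) held by the broad domain of each gene of 4 lists (rows, ordered by H3K4me3 width, given in bp). Open symbols near 0 mark genes whose domain held no EZH2 or no N-MYC peak: 4 cell cycle genes and 3 chromatin regulators lack N-MYC, and Cd2 lacks EZH2.

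Median N-MYC enrichment was highest in the lists of ribosome biogenesis, MYC network and ribosomal protein genes. All 8 domains of ribosome biogenesis and MYC target genes held N-MYC, with a median of 12.3 and a range from 4.80 to 17.1, and 10 of 10 domains of ribosomal protein genes did, with a median of 9.02. Over all broad domains 84.4% held N-MYC, which these counts are near, and the median was 6.64. Ncl, the nucleolin gene, had 17.1, Hspd1 and Hspe1, a pair of mitochondrial chaperone genes with 1 domain, had 13.8, and Eif5a had 11.6 beside the highest EZH2 value. Ubtf (6166 bp), a factor of ribosomal RNA transcription, had EZH2 at 10.1 and N-MYC at 6.54. MYC network genes with a domain were Max (N-MYC at 11.8), the partner of MYC proteins, Mnt (10.4), Mlxip (9.26), Mxd4 (7.18) and Mxd1 (6.54). Mcl1, which protects lymphocytes from apoptosis, and Bbc3, which encodes the pro-apoptotic PUMA, were the BCL2 family genes with a domain, with EZH2 at 12.2 and 4.70 and N-MYC at 6.95 and 9.73.

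The 55 domains without EZH2 had weak H3K4me3, with a median fold enrichment of 18.1 against 33.8 in those with EZH2, at similar median widths of 4648 and 4637 bp. N-MYC was present in 43.6% of them and in 86.7% of the others, and 30.9% against 5.06% held no protein-coding start. The widest were at Pik3cd (H3K4me3 at 13.3), over the alpha joining segments (18.4) and at Sh2d1a (6345 bp, 28.6), which encodes the lymphocyte adaptor SAP.

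The 160 domains without N-MYC were closer to the rest, with a median H3K4me3 enrichment of 28.6 against 34.0 and EZH2 in 80.6% of them. After Zbtb7b and the gamma locus, the widest was that of Dgka and Pym1 (9397 bp, EZH2 at 8.80). Dgka encodes a diacylglycerol kinase that dampens T-cell receptor signalling. p300 was missing from 14 domains, of which the widest were in the body of Nfe2 (6236 bp), at Bcorl1 (6191 bp) and at Abcb10 (5781 bp).

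Only H3K27ac accompanied H3K4me3 in 8 domains (0.782%, against 23.1% of narrower peaks), which were read after their values were seen. They lay at Nfe2, Dmtn, Aqp1, Art4, Ackr1 and Sh2d3c, over a cluster of transfer RNA genes and over a noncoding gene. Nfe2 encodes a factor of globin expression, Dmtn a protein of the red cell skeleton, Aqp1 a water channel of red cells, and Art4 and Ackr1 carry blood group antigens of red cells. H3K4me3 enrichment ran from 7.22 at Ackr1 to 17.8 at Art4 for these 5, beside 12.1 to 19.8 at the 5 erythroid markers. It was higher at Sh2d3c (23.2) and over the transfer RNA genes (19.5), and within the range of the 5 over the noncoding gene. All 8 were below the median of 33.3 over all broad domains. The 5 were grouped by their role in red cells after their values were seen. The part of erythroid cells in these domains was not tested.

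SUZ12 was found in the domains of Malat1 (7641 bp), Spry2 (5806 bp), Hspa8 (4910 bp) and Igf2bp3 (4751 bp), each of which also held EZH2, N-MYC, p300 and H3K27ac. SUZ12 enrichment there ran from 3.38 at Spry2, an inhibitor of growth factor signalling, to 7.93 at Hspa8, a chaperone gene. The Malat1 domain, over an abundant nuclear noncoding RNA, was among the 66 domains (6.45%) that contained no protein-coding start. Others among the widest of these lay in the body of Ets1 (9468 bp, 53489 bp from the nearest annotated start), in the body of Kdm6b (9410 bp, 2941 bp from it), an H3K27 demethylase gene, and over the noncoding gene Gm4258 (8912 bp). Ets1 is a listed T-cell lineage factor and Kdm6b a listed chromatin regulator. Neither had an H3K4me3 peak at an annotated start, so the counts by list leave both out. Domains without a protein-coding start held N-MYC and EZH2 in 74.2% each, against 85.1% and 96.0% of those with a start.

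MicroRNA hairpins lay in 26 broad domains, which contained 30 of the 1005 hairpins of the RefSeq table, against 70 in narrower peaks. These counts are to be read against the bases covered, 5.11 Mb by broad domains and 22.5 Mb by narrower peaks. The mature sequences of 5, chosen after their positions were seen because they include microRNAs known from lymphocytes, are given 5′ to 3′ with the seed, bases 2 to 8, in capitals.
miR-142a-5p: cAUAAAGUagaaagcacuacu
miR-142a-3p: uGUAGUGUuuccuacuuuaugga
miR-15b-5p: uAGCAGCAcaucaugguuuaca
miR-16-5p: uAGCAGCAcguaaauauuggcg
let-7i-5p: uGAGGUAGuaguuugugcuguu
miR-15b-5p and miR-16-5p share the seed AGCAGCA, and their hairpins lay in the 8518 bp domain of Smc4 and Ift80 (chr3:69001896-69010413), with EZH2 at 7.79 and N-MYC at 4.03. The miR-142 hairpin, from a gene restricted to blood cells, lay in the 5268 bp domain of Tspoap1 (chr11:87753964-87759231), with EZH2 at 8.11 and 3 N-MYC peaks at up to 4.51. let-7i lay in a domain of 4742 bp without a protein-coding start, with EZH2 at 9.99 and N-MYC at 9.56.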

How the data were processed

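Peak lists from 7 antibodies, with 1 library each, were used as deposited; 2 input libraries were not analysed here. Per the submitters' processing notes, FastQC, Bowtie2, SAMtools, MACS2 and deepTools and the builds mm10 and GRCm38 were used. Their roles, versions and settings, the controls and any pooling are not given in the sources used here. In the files as deposited by the authors, each peak has a whole-number score, a fold enrichment (a linear ratio at the summit), −log10 of the p-value and of the q-value, and a summit position, identified from the file layout and the values; the fold and the −log10 q-value were used. The lists end at a −log10 q-value of about 2.00, so a missing peak means no call. Read depth is unknown.

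Peaks overlapped when they shared at least 1 bp. Gene and microRNA names, starts and sequences came from RefSeq (GRCm38.p6). Of the protein-coding genes, 17492 had an entry in the promoter table; for the other 4395 no strand was known, and either gene end counted as a start, so some of their counted starts may be gene ends. Of 1006 broad summits, 77.0% lay within 1 kb of a start, against 3.28 to 5.77% with starts shifted to either side. Promoters hold 250 bases before and 50 after a start; 7 motifs were searched on both strands. Width classes, enrichment classes, profiles, promoter composition and the T-cell receptor, histone and microRNA sets are descriptions. Genes were named by width within lists, by width among domains lacking EZH2, N-MYC, p300 or a start, by SUZ12, by most N-MYC peaks, and by highest EZH2, N-MYC and p300 enrichment. Kmt2b, Kmt2c, Setd1a, Arid1b, Pbrm1, Smarca2, Ep300, Mnt and the listed genes without N-MYC were named after their values were seen. A domain among the widest and a peak just under the width limit are not reported here. The members and lists were chosen with earlier results of these data known. Alternatives were other widths, overlaps, thresholds, windows, list lengths and merging. Python 3.11.15, pandas 2.3.3 and NumPy 2.4.6 were used, and the overlap steps were checked on simulated peaks.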

Additional observations from a re-analysis of the deposited data

How the results depend on the processing

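Of 68 values over 10 results under the alternatives, 42 stayed within the interval or 1.5 times of the value given and 26 did not. With a q-value of at most 1e-05 in the other lists, EZH2 was in 90.1% of broad domains, N-MYC in 79.6%, p300 in 96.6% and all of EZH2, N-MYC, p300 and H3K27ac in 73.7%. Narrower peaks had 35.8, 40.36, 50.62 and 24.88%. With a fold enrichment of at least 4 the shares were 89.1, 78.7, 93.0 and 70.7%, against 35.78, 38.77, 44.97 and 22.57% of narrower peaks. With every list limited to the 9798 most significant peaks, EZH2 was in 82.7%, p300 in 94.5%, H3K27ac in 93.7% and all 4 in 68.9%. The narrower peaks then had 28.58, 45.11, 54.97 and 19.45%. Broad domains thus stayed above narrower peaks at each of these settings. In the window around the summit N-MYC was at 71.3%, p300 at 97.0%, SUZ12 at 0.0978% and all 4 at 69.7%. Leaving out domains with SUZ12 makes the SUZ12 share 0 by construction. A width of at least 3000 bp gave 3031 domains, with p300 in 96.7% and all 4 in 79.1%, and put 61.5% of cell cycle genes and 63.0% of chromatin regulators in a domain (16.1% of all genes). A width of at least 5000 bp gave 341 domains, with 15.4 and 10% (1.92% of all genes). With H3K27me3 allowed, 46.7% of T-cell lineage factors had a domain. The cause of these shifts was not tested beyond what each alternative changes by construction. Without replicate libraries or read depth, the lists' sensitivities cannot be compared. No paired analysis was possible because each antibody had 1 library.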
